A study of Mus musculus with 10 samples.

Results

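The mRNA levels of 10 circadian clock genes were followed in the livers of mice treated with MI-883 or with vehicle. These genes are *Arntl*, *Clock*, *Per1*, *Per2*, *Per3*, *Cry1*, *Nr1d1*, *Nr1d2*, *Dbp* and *Tef*, which were taken by name from the 16647 genes counted by RNA-seq. All 10 were listed, and all 10 were among the 13219 genes with enough reads to be tested. There were 5 control livers (vehicle alone) and 5 MI-883-treated livers, each from another male mouse. All animals were humanized PXR-CAR-CYP3A4/3A7 mice, in which the xenobiotic receptors PXR and CAR and the enzymes CYP3A4 and CYP3A7 are the human ones, while the clock genes are those of the mouse. The mice were between 10 and 15 weeks old when a high-fat diet (HFD) was started, and after 8 weeks on HFD they received 5 mg/kg MI-883, or its vehicle of DMSO, PEG300 and corn oil, by oral gavage 3 times per week for 4 weeks with the diet continued. They lived under 12 h of light and 12 h of dark, and blood was taken after 3 h of fasting. The hour at which the livers were collected is not given in the sources used here, and each animal gave 1 liver at 1 time, so that a level can be compared between livers but not placed on the daily cycle.

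The clock of a liver cell is a loop of transcription factors that feed back on their own genes. BMAL1, the product of *Arntl*, and CLOCK bind E-boxes and drive the *Per*, *Cry*, *Nr1d1*, *Nr1d2*, *Dbp* and *Tef* genes. PER and CRY proteins then repress BMAL1 and CLOCK, while REV-ERBα and REV-ERBβ (*Nr1d1* and *Nr1d2*) repress *Arntl* through ROR elements, and DBP and TEF, of the PAR bZIP family, activate genes through D-boxes. In the liver of a mouse fed freely, *Dbp*, *Nr1d1* and the *Per* genes peak by day or around dusk, whereas *Arntl* peaks close to dawn. *Per1* is also induced directly by glucocorticoids and by glucagon signalling, and feeding times shift the whole liver clock.

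Between 23513665 and 36221514 reads per liver were counted on genes, and Pearson's r between the log2 levels of any pair of livers was at least 0.970. CPM here means the count of a gene relative to the TMM-scaled library total. RPKM is CPM divided by the exon length of the gene in kilobases, with the exons of all its annotated transcripts merged. Hepatocyte markers dominated every liver, with a summed level of 71399 to 82105 CPM in control livers and 59834 to 73768 CPM in MI-883-treated livers. All 6 of these markers had a log2 fold change below 0, against 49.0% of all tested genes. None had an adjusted P under 0.05 in edgeR, against 1.03% of all genes. In 1 of the 6, *Ttr*, the groups did not overlap, against 3.98% of all genes. The 5 bile duct markers summed to between 25.0 and 116 CPM in control livers and between 35.1 and 190 CPM in treated livers, all 5 with a log2 fold change above 0 and none past the threshold. In whole liver, fewer cells of a type and less RNA per cell cannot be told apart, and the part of cell makeup in the clock gene levels was not tested. The labels were checked on *Cyp2b10*, *Cyp2c55* and *Abcc4*, known targets of CAR, and all 3 rose with MI-883 (highest edgeR adjusted P = 7.2e-06).

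The E-boxes and D-boxes through which the loop closes are shown first, because they are the letters that the factors of the loop are known to bind. Of the 10 genes, 9 had a promoter in the RefSeq table of GRCm38.p6, from 250 bases before to 50 bases after each annotated start, and *Per2* had none. The E-box CACGTG was found on either strand in 4 of the 14 promoters of these genes (of *Cry1*, of *Per1* and both of *Tef*), against 7.15% of all 32851 promoters. The variant CACGTT (E-prime box) was found in 2 promoters (of *Cry1* and *Nr1d1*), against 4.68%, and the D-box TTATGTAA in 1 (of *Per3*, at 2 places), against 0.938%. Capitals mark the match, written 5′ to 3′ on the strand of the gene, and AACGTG is CACGTT read from the other strand:
Cry1 E-box, chr10:85185097-85185126, minus strand: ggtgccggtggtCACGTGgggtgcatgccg
Cry1 E-prime box, chr10:85185116-85185145, minus strand: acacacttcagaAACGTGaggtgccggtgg
Per1 E-box, chr11:69098771-69098800, plus strand: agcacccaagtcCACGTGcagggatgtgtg
Tef E-box, chr15:81811264-81811293, plus strand: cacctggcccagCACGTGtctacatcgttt
Nr1d1 E-prime box, chr11:98775388-98775417, minus strand: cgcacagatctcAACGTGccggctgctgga
Per3 D-box, chr4:151044852-151044881, minus strand: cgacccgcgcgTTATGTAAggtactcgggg
Per3 D-box, chr4:151044805-151044834, minus strand: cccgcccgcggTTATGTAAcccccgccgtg

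The matches began 60 and 79 bases before the start in *Cry1* and 28 bases before it in *Nr1d1*. In *Per3* they began 205 and 158 bases before a start that lies inside the span of the gene, but upstream of the whole gene. Those of *Per1* and *Tef* began 166 and 138 bases before a start that lies inside the span of the gene, because both genes have further upstream starts in the annotation. A second E-box of *Tef*, 127 bases before its outer start, falls in an annotated exon. The ROR element, searched as TAGGTCA, was in 2.61% of all promoters and among the clock genes in 1 promoter, of *Arntl*. There it lies 30 bases after a start that is inside the span of the gene, not its outer start. A match is a run of letters and was not tested for binding.

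None of the 10 clock genes had an adjusted P under 0.05 in edgeR after treatment with MI-883, while 1.03% of all tested genes did (136 of 13219). The Wald test of DESeq2 likewise called none of the 10, against 3.50% of all genes. At an unadjusted P under 0.05, edgeR gave 2 of the 10 clock genes, *Dbp* and *Nr1d2*, both lower with MI-883, against 15.6% of all genes in either direction and 7.49% lower. The log2 fold change, MI-883 minus control, was below 0 in 7 of the 10 genes and in 49.0% of all genes. Its median was -0.12 over the clock genes and 0.0045 over all tested genes. In each of the 10 genes the range of the control livers overlapped that of the treated livers, whereas in 3.98% of all genes the groups did not overlap.

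How large a change these livers could hide is given by the 95% intervals, which for the 10 genes ran from -0.60 (*Per1*) to 0.65 (*Cry1*) on the log2 scale. A doubling or a halving of any of them therefore lay outside its interval. The narrowest intervals were those of *Nr1d2* and *Tef*, the widest that of *Per1*.

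**Figure D1:**
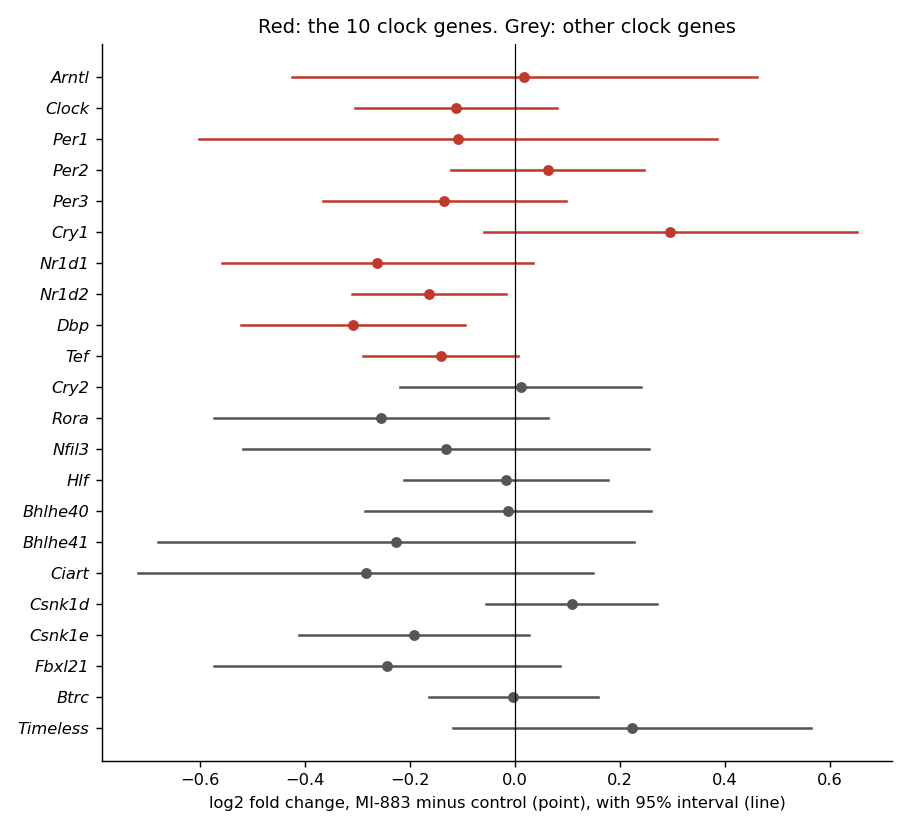
Log2 fold changes (MI-883 minus control, x axis) of the 10 clock genes in red and of 12 other clock genes in grey, with the 95% interval of each gene as a line. The intervals of *Dbp* (-0.52 to -0.095) and *Nr1d2* (-0.31 to -0.016) lie below 0, and all others cross 0.

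The activators come first. *Arntl* (Entrez gene 11865, chromosome 7, 113178471 to 113314126) encodes BMAL1 and had the fewest counts of the 10 genes. It was at 1.42, 1.06, 1.63, 1.59 and 0.965 CPM in control livers 1 to 5 and at 1.13, 1.50, 1.33, 1.57 and 1.28 CPM in MI-883-treated livers 1 to 5. The treated livers lay wholly within the range of the controls. Means were 1.34 ± 0.306 and 1.36 ± 0.177 CPM (S.D., n = 5 per group), with a log2 fold change of 0.018 (SE, the standard error, 0.20, 95% interval -0.42 to 0.46, edgeR adjusted P = 0.978). Each liver gave only 22 to 55 counts of *Arntl*, and counting error alone amounts to an S.D. of 0.24 on the log2 scale, close to the 0.28 seen between livers of a group.

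*Clock* (Entrez gene 12753, chromosome 5, 76209868 to 76305603), the partner of BMAL1, was at 17.4, 16.5, 16.3, 17.9 and 16.5 CPM in control livers 1 to 5 and at 14.97, 17.2, 17.1, 12.5 and 16.6 CPM in treated livers 1 to 5. Apart from treated livers 1 and 4, the livers lay within a narrow band. *Clock* had a log2 fold change of -0.11 (SE 0.089, edgeR adjusted P = 0.575), and -0.042 without treated liver 4. *Npas2*, which can take the place of *Clock*, had 0 to 9 counts per liver and was not tested.

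Among the repressors, *Per1* differed most between livers. *Per1* (Entrez gene 18626, chromosome 11, 69095108 to 69109965) was at 20.1, 48.7, 53.0, 35.8 and 59.7 CPM in control livers 1 to 5 and at 32.8, 45.9, 47.7, 39.1 and 35.7 CPM in treated livers 1 to 5. Control liver 1 stood lowest of all 10 livers and control liver 5 highest, 2.97-fold apart. Means were 43.5 ± 15.7 and 40.2 ± 6.41 CPM (S.D., n = 5 per group), and the log2 fold change was -0.11 (SE 0.23, 95% interval -0.60 to 0.39, edgeR adjusted P = 0.851). It was -0.29 without control liver 1, and 0.033, with the opposite sign, without control liver 5.

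*Per2* (Entrez gene 18627, chromosome 1, 91415977 to 91459351), a second PER repressor that follows systemic cues such as temperature, was at 33.7, 34.0, 42.0, 42.8 and 41.2 CPM in control livers 1 to 5. In treated livers 1 to 5 it was at 39.6, 38.9, 43.8, 37.5 and 42.4 CPM. Control livers 1 and 2 lay below all others. For *Per2* the log2 fold change was 0.063 (SE 0.085, edgeR adjusted P = 0.755).

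*Per3* (Entrez gene 18628, chromosome 4, 150997018 to 151044707), the PER protein least needed for the loop itself, was at 51.6, 47.4, 54.5, 52.4 and 74.9 CPM in control livers 1 to 5 and at 48.7, 50.7, 53.7, 49.1 and 53.4 CPM in treated livers 1 to 5. Control liver 5 stood above the other 9, which lay between 47.4 and 54.5 CPM. *Per3* had a log2 fold change of -0.13 (SE 0.11, edgeR adjusted P = 0.577) and -0.0095 without control liver 5.

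*Cry1* (Entrez gene 12952, chromosome 10, 85131700 to 85185054) encodes the late repressor of the loop and had the largest positive log2 fold change of the 10 genes. It was at 6.62, 8.18, 7.23, 8.72 and 10.1 CPM in control livers 1 to 5 and at 8.82, 13.3, 7.51, 12.0 and 8.69 CPM in treated livers 1 to 5. Treated livers 2 and 4 lay above every control liver, and the other 3 lay among the controls. Means were 8.18 ± 1.36 and 10.1 ± 2.44 CPM (S.D., n = 5 per group), and the log2 fold change of 0.30 (SE 0.16, 95% interval -0.058 to 0.65) did not pass the threshold (edgeR adjusted P = 0.406). Without treated liver 2 it was 0.18.

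The genes of both REV-ERB receptors had log2 fold changes below 0. *Nr1d1* (Entrez gene 217166, chromosome 11, 98767932 to 98775377) was at 71.5, 51.6, 76.3, 50.8 and 57.9 CPM in control livers 1 to 5 and at 45.9, 41.2, 59.9, 49.2 and 60.6 CPM in treated livers 1 to 5. Control livers 1 and 3 lay above all the others, and treated livers 1, 2 and 4 lay below all controls. For *Nr1d1* the log2 fold change was -0.26 (SE 0.14, 95% interval -0.56 to 0.035, edgeR adjusted P = 0.377). Its exons share 263 bases (8.55%) with *Thra*, a thyroid hormone receptor gene on the opposite strand, which was at 5.65 to 8.13 CPM in control and 5.84 to 6.96 CPM in treated livers.

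*Nr1d2* (Entrez gene 353187, chromosome 14, 18204056 to 18239106) was at 128, 117, 112, 133 and 125 CPM in control livers 1 to 5 and at 114, 115, 106, 101 and 113 CPM in treated livers 1 to 5. Every treated liver lay below 4 of the 5 controls, with an overlap through control liver 3. Means were 123 ± 8.52 and 110 ± 6.06 CPM (S.D., n = 5 per group). The log2 fold change was -0.16 (SE 0.068, P = 0.0324 unadjusted and 0.276 adjusted in edgeR), and the exact two-sided permutation test of 5 against 5 livers, which can give no P under 0.00794, gave 0.0397.

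The output genes of the PAR bZIP family included the largest fold change of the 10. *Dbp* (Entrez gene 13170, chromosome 7, 45705100 to 45710203), a direct BMAL1 target with one of the strongest daily rhythms in liver, was at 135, 112, 151, 120 and 135 CPM in control livers 1 to 5. In treated livers 1 to 5 it was at 105, 89.6, 97.4, 121 and 115 CPM. Treated livers 1, 2 and 3 lay below all controls, and treated livers 4 and 5 lay between control livers 2 and 5. Means were 131 ± 14.96 and 105 ± 12.6 CPM (S.D., n = 5 per group), which as a change of the treated livers corresponds to a 95% interval from -30.3% to -6.40%. The log2 fold change was -0.31 (SE 0.098, P = 0.00797 unadjusted), but over all tested genes the adjusted P was 0.167 in edgeR and 0.0751 in DESeq2, and the exact permutation test gave 0.0397.

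The exons of *Dbp* share 539 bases (18.0%) with *Sphk2*, a sphingosine kinase gene on the opposite strand. *Sphk2* was at 64.3 to 73.4 CPM in control livers and at 55.3 to 82.0 CPM in treated livers. The library kit keeps the strand, but the strand setting of the counting is not given in the sources used here, and the share of *Sphk2* reads in the *Dbp* counts was not tested.

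*Tef* (Entrez gene 21685, chromosome 15, 81802673 to 81826863), the relative of *Dbp* with the weaker rhythm, was at 223, 218, 240, 251 and 254 CPM in control livers 1 to 5 and at 209, 222, 201, 223 and 219 CPM in treated livers 1 to 5. Control livers 3, 4 and 5 lay above all treated livers, control liver 1 was level with treated liver 4 and control liver 2 lay among the treated livers. The fitted log2 fold change was -0.14 (SE 0.068, 95% interval -0.29 to 0.0066, edgeR adjusted P = 0.341). The third PAR bZIP gene, *Hlf*, was at 59.6 ± 5.11 CPM in control and 58.9 ± 6.75 CPM in treated livers (S.D., n = 5 per group).

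**Figure D2:**
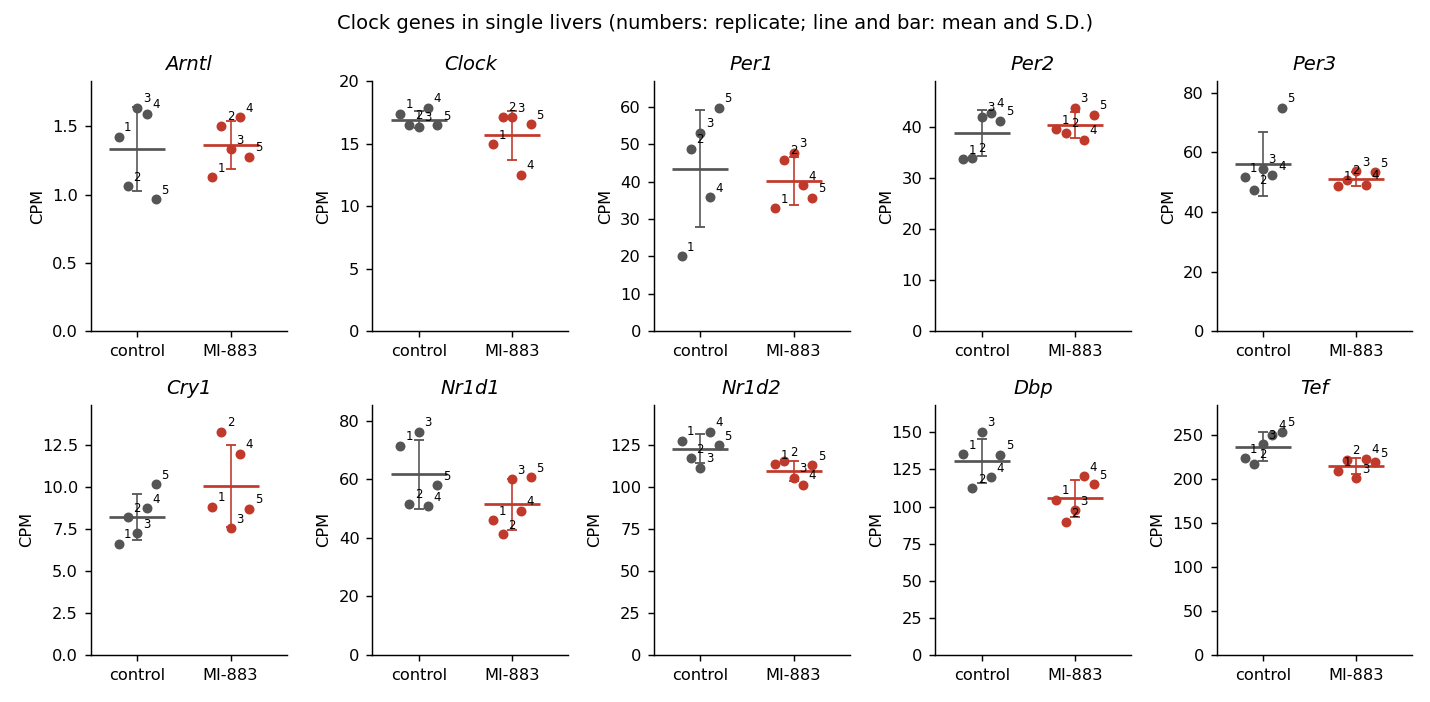
Levels of the 10 clock genes in CPM (y axis, from 0) in 5 control livers (grey) and 5 MI-883-treated livers (red), each point labelled with its replicate number, with the mean as a line and the S.D. as a bar. The groups overlap in every gene, control liver 1 is lowest in *Per1* at 20.1 CPM and control liver 5 is highest in *Per3* at 74.9 CPM.

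Per merged exon length, the output genes stood at the top and the activators at the bottom. This length can exceed that of the transcripts present in liver, and its part in the order was not tested. The median over 10 livers was 39.2 RPKM for *Dbp* and 28.3 RPKM for *Tef*, whose ranges overlapped, and 21.2 RPKM for *Nr1d2* and 17.8 RPKM for *Nr1d1*, whose ranges also overlapped. Then followed *Per1* at 7.54, *Per2* at 6.90 and *Per3* at 5.41 RPKM, each overlapping its neighbour. *Cry1* at 2.61, *Clock* at 1.21 and *Arntl* at 0.183 RPKM did not overlap each other. *Cry1* reached 3.97 RPKM in its highest liver, above the lowest liver of *Per1* (3.57 RPKM), but stayed below *Per2* and *Per3*. The level of *Dbp* over that of *Arntl*, as a difference of log2 CPM, lay between 6.22 and 7.10 in control livers and between 5.88 and 6.51 in treated livers. In every liver, *Dbp* and *Nr1d1* thus stood above *Arntl* in CPM. This is an order of different genes, and without livers of known hour it does not place a liver on the daily cycle.

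How far livers of one group differed from each other depended on the gene. The S.D. of log2 CPM within groups was largest in *Per1* at 0.47, higher than in 85.9% of all tested genes, although counting error of *Per1* amounts to 0.044 only. It was 0.30 in *Cry1*, 0.26 in *Nr1d1*, 0.18 in *Per3* and 0.17 in *Dbp*. *Nr1d2* at 0.091 and *Tef* at 0.084 were among the steadiest, above only 9.30% and 6.31% of all genes. The median of the 10 genes was 0.177, against 0.183 over all tested genes, and 5 of the 10 lay above the latter. In *Per1* the S.D. was 0.63 in control livers and 0.23 in treated livers, and in *Per3* it was 0.25 and 0.065. Whether the spread differs between the groups was not tested.

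Each liver's distance from the mean of its own group, averaged over the 10 genes without sign, ran from 0.11 (treated liver 1) to 0.22 (control liver 1) on the log2 scale. The largest single distance was that of *Per1* in control liver 1, at -1.01, followed by *Per1* in control liver 5 at 0.55. In control liver 1, *Per2*, *Per3* and *Cry1* also lay below the group mean (-0.19, -0.10 and -0.29), while *Nr1d1* lay above it (0.23) and *Clock*, *Nr1d2* and *Dbp* lay within 0.06 of it. Control liver 5 was the reverse in the repressors, with *Per2* at 0.097, *Per3* at 0.43 and *Cry1* at 0.32, and had the lowest *Arntl* (-0.43). MI-883-treated liver 1 lay below its group mean in all genes but *Nr1d2*, with *Per1* (-0.28) and *Arntl* (-0.26) farthest. In the other 9 livers between 2 and 7 of the 10 genes lay above the group mean.

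**Figure D3:**
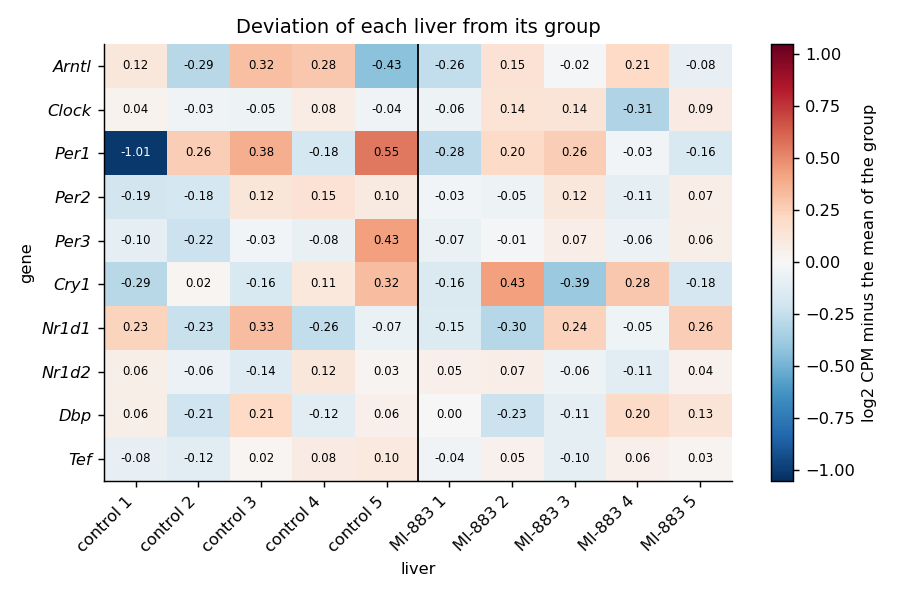
Distance of each liver (columns) from the mean of its group in each clock gene (rows), in log2 CPM, printed in each cell and coloured from blue (below the mean) to red (above). *Per1* in control liver 1 is the darkest cell at -1.01, and no column is of one colour throughout.

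*Arntl* and the genes that peak by day or around dusk (*Dbp*, *Nr1d1* and the *Per* genes) are known to move in opposite phase. Each of the other 9 genes was set against *Arntl* after subtracting the group means, also *Clock* and *Cry1*, to which this does not apply. Over the 10 livers Pearson's r ran from -0.41 (*Per3*) to 0.22 (*Dbp*), 5 negative and 4 positive. None of the 9 had a P under 0.05 in the exact permutation of livers within groups, and every adjusted P was 0.978. Counting error of *Arntl* (S.D. 0.24) was close to its S.D. between livers of a group (0.28). These relations can therefore say little about phase. For *Dbp*, r was 0.22 (P = 0.567) and rho 0.27 (P = 0.483). Without control livers 2 and 5, the farthest from the median of *Arntl*, r was 0.029 for *Dbp*, -0.21 for *Nr1d1*, 0.56 for *Per1* and 0.71 for *Cry1*.

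All 45 pairs among the 10 genes were compared in the same way, a family added after the data had been seen. Of these, 3 had an unadjusted P under 0.05 and none had an adjusted P under 0.05 (lowest 0.675, exact permutation within groups). For *Cry1* and *Nr1d1* there was r of -0.72 (P = 0.0363) and rho of -0.71 (P = 0.0383), and r of -0.65 without treated livers 2 and 4. *Cry1* and *Tef* had r of 0.68 (P = 0.0308), rho of 0.68 (P = 0.0322) and r of 0.67 without the same livers. *Clock* and *Nr1d2* had r of 0.57 (P = 0.0450) and rho of 0.53 (P = 0.0933), and r of 0.70 without treated livers 1 and 4. Values of r as far from 0 were common, since 12.8% and 16.2% of the genes with a mean of at least 1 CPM reached those of *Nr1d1* and *Tef* with *Cry1*, and 15.1% that of *Nr1d2* with *Clock*. For *Nr1d1* and *Dbp*, both driven by BMAL1, r was 0.65 (P = 0.0619) and rho 0.82 (P = 0.00931, adjusted 0.419), but r was 0.31 without control liver 3 and treated liver 2.

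The wide spread of *Per1* led to a comparison with 6 glucocorticoid targets and 9 feeding and fasting genes, chosen after the *Per1* values had been seen. *Pck1*, the rate-limiting enzyme of gluconeogenesis and a target of both glucocorticoids and glucagon, was at 1420, 3237, 3794, 2844 and 3986 CPM in control livers 1 to 5. In treated livers 1 to 5 it was at 2228, 3081, 2511, 2713 and 2158 CPM. Control liver 1 was lowest and control liver 5 highest in *Pck1*, as in *Per1*. Over the 10 livers r was 0.956 (exact permutation within groups, P = 0.00174, adjusted 0.0260 over the 15 genes) and rho 0.903 (P = 0.00354, adjusted 0.0531). Without control livers 1 and 5, r was 0.795, and without 1 liver at a time it lay between 0.837 and 0.980. Its log2 fold change was -0.27 (SE 0.22, edgeR adjusted P = 0.591).

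Of the 15 relations, 13 were positive, 4 had an unadjusted P under 0.05 and only that of *Pck1* had an adjusted P under 0.05. The share of all genes with a positive r or such a P was not taken. Without control livers 1 and 5, r fell from 0.68 to -0.34 for *G6pc*, from 0.74 to 0.078 for *Igfbp1* and from 0.63 to 0.13 for *Sgk1*. *Tat*, a glucocorticoid-induced enzyme of tyrosine breakdown, had r of 0.88 with *Per1* (P = 0.00924, adjusted 0.0693, exact permutation) and 0.59 without control livers 1 and 5. *Tsc22d3*, which encodes the glucocorticoid-induced protein GILZ, had r of 0.81 (P = 0.0270, adjusted 0.135, exact permutation) and 0.70 without these livers. For *Cpt1a*, the gateway of fatty acid oxidation, r was 0.65 (P = 0.0435, adjusted 0.152, exact permutation) and 0.34 without control livers 1 and 5. As large a value of r with *Per1* was reached by 0.207% of such genes for *Tat*, 0.792% for *Tsc22d3* and 5.70% for *Cpt1a*. *Fkbp5*, another glucocorticoid target, had r of 0.15 (P = 0.738, exact permutation). Control liver 1, with the lowest *Per1*, was also lowest in *Tat* at 302 CPM, where the other livers had 529 to 1208 CPM, and in *Tsc22d3* at 41.4 CPM, where the others had 55.6 to 121 CPM. It was lowest as well in *Sgk1*, *G6pc*, *Igfbp1* and *Angptl4*, besides *Pck1*. In the rest of both lists it was not lowest, that is in *Fkbp5*, *Zbtb16*, *Mt2*, *Srebf1*, *Pdk4*, *Fgf21*, *Cpt1a* and *Ppargc1a*. The 5 Kupffer cell markers together were at 179 to 267 CPM in control livers, with control liver 1 highest, and at 137 to 317 CPM in treated livers. Of these, *Marco* was at 17.0 CPM in control liver 1 and 0.888 to 4.47 CPM elsewhere, while in *Clec4f*, *Vsig4*, *Adgre1* and *Cd5l* control liver 1 lay within the range of the others. Their part in the *Per1* level was not tested.

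**Figure D4:**
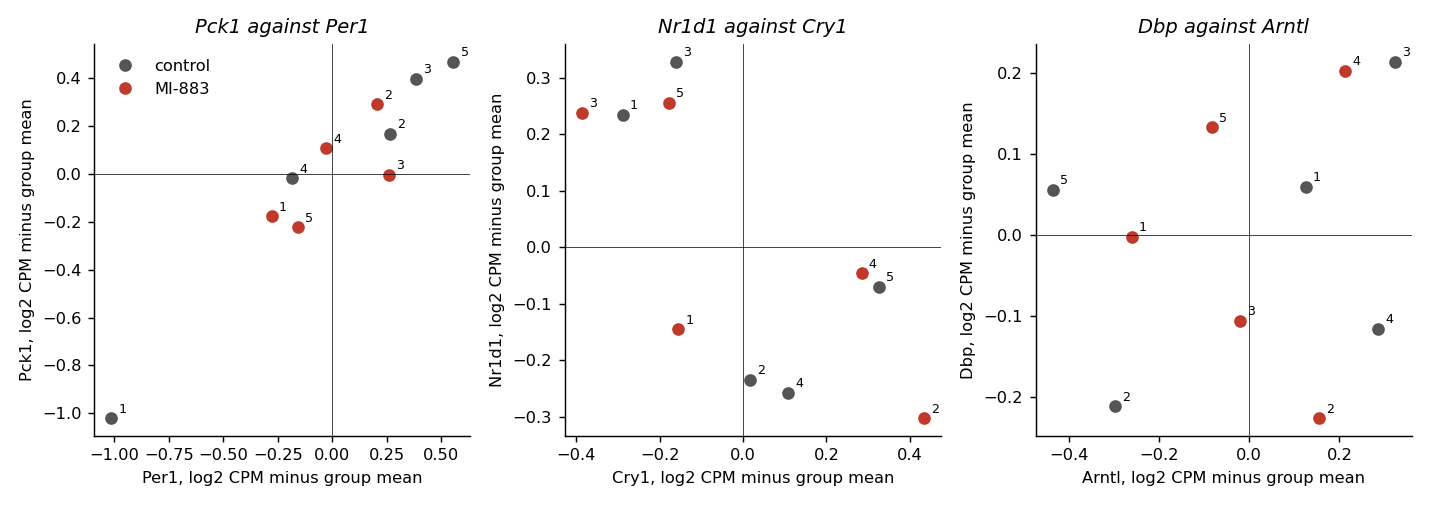
Each point is 1 liver (grey control, red MI-883-treated, labelled with its replicate number), placed by its distance from the group mean in log2 CPM, for *Pck1* against *Per1* (left), *Nr1d1* against *Cry1* (middle) and *Dbp* against *Arntl* (right). Pearson's r over the 10 livers was 0.956, -0.72 and 0.22, and control liver 1 stands apart at the lower left of the first panel.

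Among 11603 other genes with a mean of at least 1 CPM, those whose distances from the group means followed *Arntl* most closely over the 10 livers were *Dclk3* (r of 0.925), *Ltbr* (0.904), *2810006K23Rik* (0.901), *Tomt* (0.874) and *Proser3* (0.867). For *Dbp* they were *Zbtb22* (0.927), *Zfp467* (0.921), *Sharpin* (0.912), *Ptpn3* (0.908) and *Dolpp1* (0.902). None of these 10 is among the clock genes listed here. *Pck1* was the closest of the 11603 genes to *Per1*, followed by *Elf2* (0.948) and *Fbxo34* (0.942). *Cry1* was followed most closely by *Cyp3a13*, a mouse cytochrome of the CYP3A family, with r of 0.991, and then by *Ces1c*, a carboxylesterase, with r of 0.972. The lists for *Per1* and *Cry1* were drawn up after the data had been seen. These are the highest of 11603 values over the same 10 livers and are given without a test. Those for *Arntl* rest on only 22 to 55 counts of *Arntl* per liver.

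Of 14 other clock genes, 13 were listed and 12 tested. None of these had an adjusted P under 0.05 in edgeR or DESeq2, against 1.03% and 3.50% of all genes. None had an unadjusted P under 0.05 in edgeR, against 15.6% of all genes. Their log2 fold changes ran from -0.28 to 0.22, with 9 below 0 and a median of -0.073. The lowest was that of *Ciart*, a repressor of BMAL1 and CLOCK, at 18.3 ± 5.28 CPM in control and 15.03 ± 3.23 CPM in treated livers (S.D., n = 5 per group). The highest was that of *Timeless*, at 5.32 ± 0.720 and 6.20 ± 1.46 CPM. *Cry2*, the other cryptochrome, was at 44.5 ± 5.69 and 44.8 ± 6.03 CPM. For *Rora*, a ROR receptor that activates *Arntl* at the elements where REV-ERBs repress it, the log2 fold change was -0.25 (SE 0.15, edgeR adjusted P = 0.424).

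Among 12 liver genes with a known daily rhythm, none passed the threshold in either tool. Over all genes, edgeR called 1.03% and DESeq2 3.50%. At an unadjusted P under 0.05, edgeR gave 2 of the 12, against 15.6% of all genes. These were *Elovl3*, a fatty acid elongase, with a log2 fold change of 0.40 (SE 0.17, edgeR adjusted P = 0.291), and *Insig2*, a brake on cholesterol synthesis, with 0.29 (SE 0.11, edgeR adjusted P = 0.215). *Noct*, a rhythmic phosphatase, was at 17.5 CPM in control liver 1 and at 25.5 to 67.4 CPM in the others.

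Of 7 detoxification genes known as targets of PAR bZIP factors, 3 passed the threshold in edgeR, against 1.03% of all genes. *Cyp2b10*, *Cyp2c50* and *Cyp2a5* rose, with log2 fold changes of 4.80, 1.91 and 0.77 (adjusted P = 3.6e-07, 7.2e-06 and 0.0281 from edgeR). All 3 are also known targets of CAR. *Dbp* and *Tef* had log2 fold changes below 0 that did not pass the threshold, and the cause of the rise was not tested. *Alas1*, *Por*, *Nr1i3* and *Cyp2a4* did not pass the threshold, with log2 fold changes of 0.056, 0.43, -0.16 and 0.13. *Nr1i3*, at 4.41 to 8.90 CPM, is the mouse entry for CAR, and reads were aligned to the mouse genome. In these mice CAR is the human one, so this value cannot be read as its level.

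Of 8 temperature and heat shock genes, which can reset liver clocks or follow body temperature, none passed the threshold in edgeR. Over all tested genes, edgeR called 1.03% and DESeq2 3.50%. *Cirbp*, the cold-induced RNA-binding protein, was at 27.0 ± 3.19 CPM in control and 26.3 ± 4.13 CPM in treated livers (S.D., n = 5 per group). *Hspa1a* had a log2 fold change of 1.31 on 4 to 30 counts per liver (adjusted P = 0.129 in edgeR and 0.0452 in DESeq2). Of the 6 glucocorticoid targets none passed in either tool, against the same shares of all genes.

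Of 9 feeding and fasting genes, 2 passed the threshold in edgeR and 2 in DESeq2, against 1.03% and 3.50% of all genes. *Pdk4*, a kinase that spares glucose in fasting, rose with a log2 fold change of 1.27 (SE 0.23, edgeR adjusted P = 0.0198). *Srebf1*, a driver of lipid synthesis after feeding, fell, with a log2 fold change of -0.58 (SE 0.13, edgeR adjusted P = 0.0470). The other 7, among them *G6pc*, *Igfbp1* and *Ppargc1a*, did not pass in either tool. The paper reports a similar food intake in treated and control mice, and the cause of the changes in *Pdk4* and *Srebf1* was not tested here.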

How the data were processed

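Liver RNA of 5 control and 5 MI-883-treated mice was sequenced as paired ends from directional libraries. The authors aligned the reads to mm10 with STAR and deposited raw counts from featureCounts, unnormalized, with 1 Entrez identifier a row. The submitters' processing notes also name fastp 0.23.0. The versions of STAR and featureCounts, the gene annotation and the strand setting are not given in the sources used here. Of 16647 listed genes, 16644 were matched to RefSeq for symbols and positions (GRCm38). Exon lengths, merged over all annotated transcripts of a gene, and overlaps were taken from GENCODE M21.

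Groups and replicate numbers follow the labels. Library totals lay between 23513665 and 36221514 counts, and 1 count corresponds to at least 0.028 CPM. The 13219 genes that reached a sum of 60 counts entered edgeR 4.0.16 (R 4.3.3, TMM scaling, quasi-likelihood F-test, no term besides the treatment, Benjamini-Hochberg adjustment over all tested genes, threshold 0.05). The standard error is the log2 fold change divided by the square root of F, and 95% intervals are per gene and not adjusted. Mean log2 CPM of single genes was also compared by an exact permutation test (two-sided, 252 splits). Relations used log2 CPM (prior count 0.5) minus group means and all 14400 orders of livers within groups, two-sided. Alternatives were the Wald test of DESeq2 1.42.0, other scaling and count filters, a replicate block and leaving out each liver. The fit was tested on simulated data. Scripts used Python 3.11.15 and scipy 1.17.1.

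Members, lists and tests were chosen with earlier results of these data known. Genes named are the 10 clock genes, members of the lists, 3 treatment checks, and the 5 genes most like *Arntl* and *Dbp*. The genes most like *Per1* and *Cry1* and those overlapping *Dbp* and *Nr1d1* were named after their values were seen. Some genes of the lists are not reported here and were left out of their counts.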

Additional observations from a re-analysis of the deposited data

Results flagged for a closer look

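In 1 of 44 groups of 5 livers tested for a single far value (Dixon's test at 95%), 1 liver stood apart, where chance alone flags about 1 in 20 groups, or 2.2 of 44. *Per3* was at 74.9 CPM in control liver 5, and the nearest control liver had 54.5 CPM. The cause was not tested.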

How the results depend on the processing

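The count of clock genes called was 0 under all 16 alternatives, whereas the count over all genes (136) was 463 with DESeq2, 89 with the replicate block, and between 62 (without MI-883-treated liver 5) and 208 (without control liver 1) when 1 liver was left out. The labels give no pairing of livers by replicate number, and each liver is from another animal. Deviations of same-numbered livers correlated between -0.12 and 0.36, with none closest to its own number. So few values cannot exclude a pairing. The block called none of the clock genes. Of 159 log2 fold changes of clock genes under the alternatives, none passed the threshold (lowest adjusted P = 0.0751, *Dbp* in DESeq2) and 5 changed sign, all on leaving out 1 liver. These were *Arntl* (range -0.071 to 0.095; -0.050 and -0.071 without control livers 2 and 5, -0.019 and -0.036 without treated livers 2 and 4) and *Per1* (-0.29 to 0.033). *Arntl* had no value with 60 counts in every liver. Scaling by total counts moved the median of all genes to 0.049 and that of the clock genes to -0.074, with 7 of 10 still below 0.

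The relations with *Arntl* were the least stable values. Leaving out 1 liver, r ranged from -0.11 to 0.54 for *Clock*, -0.47 to 0.045 for *Per1*, -0.12 to 0.40 for *Per2*, -0.77 to 0.55 for *Per3*, -0.18 to 0.35 for *Cry1*, -0.034 to 0.44 for *Nr1d1*, -0.41 to 0.21 for *Nr1d2*, -0.014 to 0.40 for *Dbp* and -0.044 to 0.74 for *Tef*. The sign also changed for *Clock* with total counts (0.091) and Spearman's rho (0.018), for *Nr1d2* with rho (0.0061), and without the 2 livers farthest in *Arntl* for *Per1* (0.56), *Per3* (0.071), *Cry1* (0.71) and *Nr1d1* (-0.21). None of the 9 passed the threshold with total counts or rho. Counting error of *Arntl* (S.D. 0.24) was close to its S.D. between livers of a group (0.28), and its part in these changes was not tested.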
